A study of Rattus norvegicus with 10 samples.

Results

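The proteasome genes described here are all genes of the deposited tables whose name is Psm followed by a letter from a to g and a number. They encode the subunits of the proteasome, its activators, 1 inhibitor and most of its dedicated assembly factors. The rule took 48 of 39784 gene names, and no measured value entered it. Of the 48, 46 had a mean of at least 1 TPM (a transcript level scaled for gene length and to the same total in every library) and were tested, among 13420 gene names tested in all. The 2 genes under that level were Psma8, the testis form of an alpha subunit, listed at 0 in every library, and Psmb11, the thymus form of a catalytic subunit, listed at 0 in both YAP5SA libraries and at 0.14 and 0.16 TPM in the YAP5SA-S94A libraries.

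RNA was sequenced from neonatal rat cardiomyocytes, heart muscle cells of newborn wild type rats, kept in M199 medium with fetal bovine serum. One group received the construct labelled Ad-Xon-YAP5SA, for an activated YAP whose inhibitory phosphorylation sites are changed to alanine. The other received Ad-Xon-YAP5SA-S94A, the same protein with a further change that disrupts its binding to TEAD transcription factors. Each group had 2 libraries, described by the labels as biological replicates but not as separate cultures, so p-values measure only the spread between these libraries. No RNA library of GFP or untreated cells was used here, so a difference between the YAP forms cannot be assigned to either of them.

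The 20S core of the proteasome is a barrel of alpha and beta rings that cuts proteins, and the 19S regulatory particle on its ends recognises, deubiquitinates and unfolds ubiquitinated substrates. Interferon gamma induces catalytic beta subunits that replace the constitutive ones and so form the immunoproteasome, and it also induces PA28, a cap that opens the core without ubiquitin or ATP. In heart muscle the proteasome clears damaged and surplus sarcomere proteins, and its subunit genes are known for being transcribed in concert.

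Fold changes below are differences of log2(TPM + 1), with YAP5SA-S94A subtracted from YAP5SA, and come with a standard error (SE). Adding 1 shrinks the fold changes of genes at low TPM. A gene is said to have risen or fallen in YAP5SA where limma gave an adjusted p under 0.05 (Benjamini-Hochberg over all 13420 genes). Group levels are mean ± SD with n = 2. A single value compared between 2 and 2 libraries cannot reach an exact permutation p under 0.333, so none is given for sums and ratios. The libraries held an estimated 4.02 to 5.10 gigabases of aligned sequence, inferred from the ratio of coverage to FPKM and not counted from reads. The mean read depth over the tested proteasome genes ran from 11.6 to 778 reads per base. As a check of the groups, Ccn1, a direct YAP-TEAD target, stood at 522 and 438 TPM in YAP5SA and at 39.9 and 36.1 TPM in YAP5SA-S94A, and Yap1, whose total RNA here can hold both the cell's own and the introduced message, at 105 and 99.1 against 117 and 121 TPM. The proliferation markers rose in 8 of 8 cases, with a summed level of 223 and 247 TPM in YAP5SA against 68.1 and 53.0 TPM. Cardiomyocyte markers were abundant in every library, at a summed 23150 to 25348 TPM, beside fibroblast markers at 6748 to 8527 TPM. The cardiomyocyte sum includes Nppa, which rose, at 9625 and 9474 TPM in YAP5SA against 3743 and 3714 TPM in YAP5SA-S94A. Of these lists 2 of 8 cardiomyocyte markers rose and 5 fell, and 2 of 8 fibroblast markers fell. For all marker lists here, the shares over all genes were 17.4% rising and 15.5% falling. Smooth muscle and pericyte markers summed to 5116 and 5000 TPM in YAP5SA against 638 and 617 TPM, almost wholly through Acta2, the only 1 of 6 that rose. Endothelial markers stood at 24.2 and 26.7 against 35.0 and 35.6 TPM. Of the 5 tested, Kdr fell, at 3.97 and 3.33 against 21.3 and 19.9 TPM, Tek rose, and the others did not pass. Epicardial markers stood at 57.1 and 50.2 against 41.6 and 40.2 TPM, and 2 of 5 rose. One was Upk3b, at 22.4 and 18.2 against 0.61 and 0.54 TPM, while Upk1b and Tbx18 lay lower in YAP5SA and did not pass. The mitochondrial share of TPM was 7.53% and 10.2% with YAP5SA, and 12.6% and 14.03% with YAP5SA-S94A. The part of these shifts in the results below was not tested, apart from the rescaling without mitochondrial transcripts where it is named, and in whole-culture RNA a change in the number of cells of a type and a change in RNA per cell cannot be told apart.

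Most proteasome genes stood at close to the same level with both YAP forms. Of the 46 tested, 8 passed the test (17.4%), 5 higher and 3 lower in YAP5SA. Over all genes the test called 32.9%, with 17.4% higher and 15.5% lower, and among genes with a mean of at least 10 TPM, where 44 of the 46 lie, it called 38.6%. An unadjusted limma p under 0.05 was found for 7 higher and 4 lower of the 46. Among all 13420 genes 3024 higher and 2867 lower had one, and the unadjusted counts given below stand beside these. The genes that rose were Psmd14, Psmc3, Psmd9, Psmc4 and Psmb2, and those that fell were Psme1, Psme4 and Psmd5. The count of higher genes depended on single libraries. Leaving out YAP5SA replicate 2 gave 10, leaving out YAP5SA-S94A replicate 1 gave 2, and leaving out YAP5SA-S94A replicate 2 gave 1. Calls over all genes moved as well, from 2337 to 2610 higher genes without YAP5SA replicate 2, and to 1706 and 1700 without YAP5SA-S94A replicates 1 and 2, where 22.5% of all genes were called in either direction. The genes added without YAP5SA replicate 2 were Psmb9 (fold change 0.84), Psmd8 (0.33), Psmd3 (0.29), Psmb4 (0.27) and Psmb5 (0.25), and Psmd6 then passed as lower (-0.25). Leaving out YAP5SA replicate 1 gave 5 lower genes, with Psmf1 (-0.42) and Psmd4 (-0.29) added, and Psma4 (0.29) and Psma5 (0.24) then passed as higher.

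The median fold change of the 46 was 0.01, and its median size regardless of sign was 0.16, against 0.33 over all genes. For 36 of them (78.3%) the 95% interval of the fold change lay within 1.5-fold in either direction, a limit chosen after the values were seen, against 31.5% of all genes. Interval width depends on the SE, whose median was 0.10 for the 46 and 0.16 over all genes. Their median levels were 145 and 18.8 TPM, and these shares were not compared among genes of like level. YAP5SA and YAP5SA-S94A libraries did not overlap for 30 of the 46 (65.2%), against 68.2% of all genes. Together the 46 genes held 0.674% of TPM in both YAP5SA libraries and 0.669% and 0.668% in the YAP5SA-S94A libraries. The summed share of total TPM was thus almost the same in the 4 libraries, while single members moved in opposite directions. That total includes mitochondrial transcripts, whose share differed between the groups. With them left out, the median fold change of the 46 was -0.0643, beside -0.0662 over all genes.

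**Figure D1:**
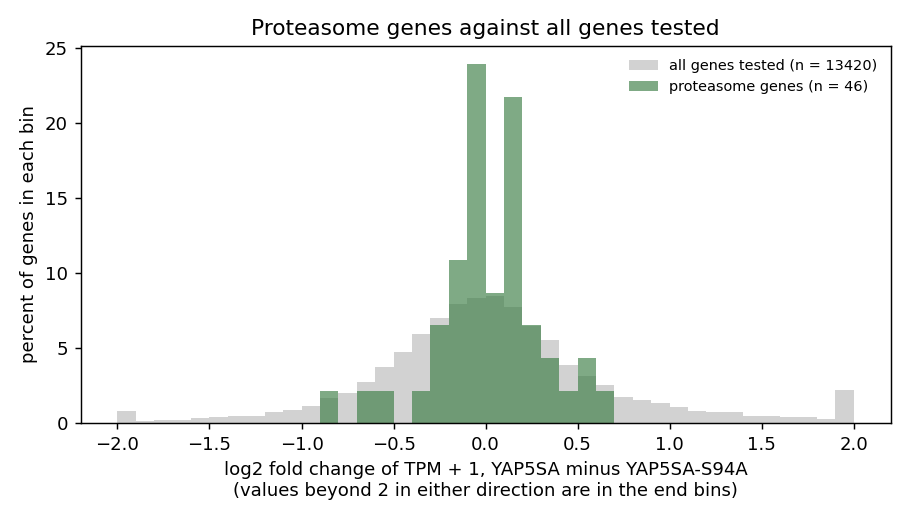
Distribution of log2 fold changes (x axis, difference of log2(TPM + 1) between YAP5SA and YAP5SA-S94A, positive where YAP5SA is higher) as the percent of genes per bin (y axis), for the 46 tested proteasome genes (green) and all 13420 tested genes (grey). The proteasome genes lie between -0.86 and 0.62, while all genes run from -4.79 to 6.64.

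The constitutive 20S core was the most abundant and the least changed of the large groups, with a median size of fold change of 0.09 against 0.16 in the 19S particle. The groups of subunits were not tested against each other. Its 14 subunits had mean levels of 142 to 339 TPM, and their sum was 3223 and 3260 TPM in YAP5SA against 3168 and 3073 TPM in YAP5SA-S94A. Only Psmb2 passed the test (1 of 14, against 32.9% of all genes), the median fold change was 0.05, and all 14 intervals lay within 1.5-fold. The median turned negative with mitochondrial transcripts left out (-0.0197) and without YAP5SA replicate 2 (-0.0316).

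The 7 alpha subunits, which form the outer rings and the gate of the barrel, had fold changes of -0.08 to 0.12 and a median of -0.03. None passed in limma, and 0 of 7 had an unadjusted p under 0.05. Psma7, the most abundant of them, stood at 256 and 265 TPM in YAP5SA and 282 and 269 TPM in YAP5SA-S94A. Psma5, with Psma3 the lowest of them, stood at 134 and 160.2 against 135 and 137 TPM. YAP5SA replicate 2 was the highest library for both Psma4 (207 TPM against 162 to 172 TPM in the others) and Psma5, and without it their fold changes were -0.0563 and -0.0185.

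Of the 4 beta subunits without a catalytic site, 1 rose, against 17.4% of all genes. Psmb1 was the most abundant of all proteasome genes, with 336 and 340 TPM in YAP5SA and 346 and 333 TPM in YAP5SA-S94A, so that the groups overlapped. Psmb4 followed with 381 and 326 against 324 and 307 TPM, a fold change of 0.16 (SE 0.11). Psmb3 had a fold change of 0.16 as well and did not pass.

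Psmb2 (chr5:138970564-139002715 in the rn7 build) stood at 160 and 165 TPM in YAP5SA and at 131 and 122 TPM in YAP5SA-S94A. Both YAP5SA libraries were above both others. Its level was 162 ± 3.59 against 126 ± 6.59 TPM (n = 2 each), a fold change of 0.36 (SE 0.09, limma adjusted p = 0.0258). This call was the least firm of the 8. The limma adjusted p was 0.0524 in FPKM, 0.0501 with mitochondrial transcripts left out, 0.0864 without the intensity trend, and 0.135 and 0.305 without YAP5SA-S94A replicates 1 and 2.

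The promoter of Psmb2 is shown because it was the only core gene that passed and because the antioxidant response element and the NF-Y box, known elements of proteasome promoters, adjoin in it. The window is the 160 bases before the RefSeq start in the GRCr8 build (chr5:144254898-144255057, plus strand), written 5′ to 3′ on the gene's strand, as are all windows below. Capitals mark matches, on either strand, to 6 motifs: TGACNNNGC (core of the antioxidant response element, bound by Nrf factors with small Maf partners), GGAATG (TEAD), CCAAT (NF-Y), CCGGAAG (ETS factors), GAAANNGAA (interferon regulatory factors, IRF) and TTCNNNGAA (STAT).
Psmb2: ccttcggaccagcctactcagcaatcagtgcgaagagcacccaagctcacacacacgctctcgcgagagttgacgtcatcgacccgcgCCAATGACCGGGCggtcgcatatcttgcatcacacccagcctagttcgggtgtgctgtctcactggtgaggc
The NF-Y match spans bases 72 to 68 before the start and the antioxidant element match bases 68 to 60, so they share 1 base.

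Over the full windows of 250 bases before and 50 after the start, the antioxidant element was found in 8 of the 42 tested proteasome genes with a RefSeq window (19.05%) and in 14.7% of the 10491 tested genes with one. NF-Y boxes were found in 21 of 42 (50%) against 37.6%, ETS matches in 14 (33.3%) against 17.8% and IRF matches in 9 (21.4%) against 7.23%. TEAD matches were found in 4 of 42 (9.52%) against 11.3%, and STAT matches in 4 (9.52%) against 6.82%. Of the 8 genes that passed the test, 7 had a window. Of these, 3 held the antioxidant element, 3 an NF-Y box, 1 an ETS match, 1 an IRF match, 0 the TEAD letters and 0 the STAT letters. A match describes letters only and draws nothing about binding. Psma7, Psmd6, Psmd12 and Psmd14 had no entry.

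The 3 constitutive catalytic subunits cut after different residues, Psmb5 after hydrophobic, Psmb6 after acidic and Psmb7 after basic ones. None passed in limma, and 0 of 3 had an unadjusted p under 0.05. Psmb5 stood at 290 and 244 TPM in YAP5SA and 247 and 241 TPM in YAP5SA-S94A, which overlapped. Psmb6 stood at 253 and 231 against 219 and 214 TPM (fold change 0.16, SE 0.09), without overlap. Psmb7, the most abundant of them, stood at 309 and 344 against 350 and 333 TPM and overlapped.

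**Figure D2:**
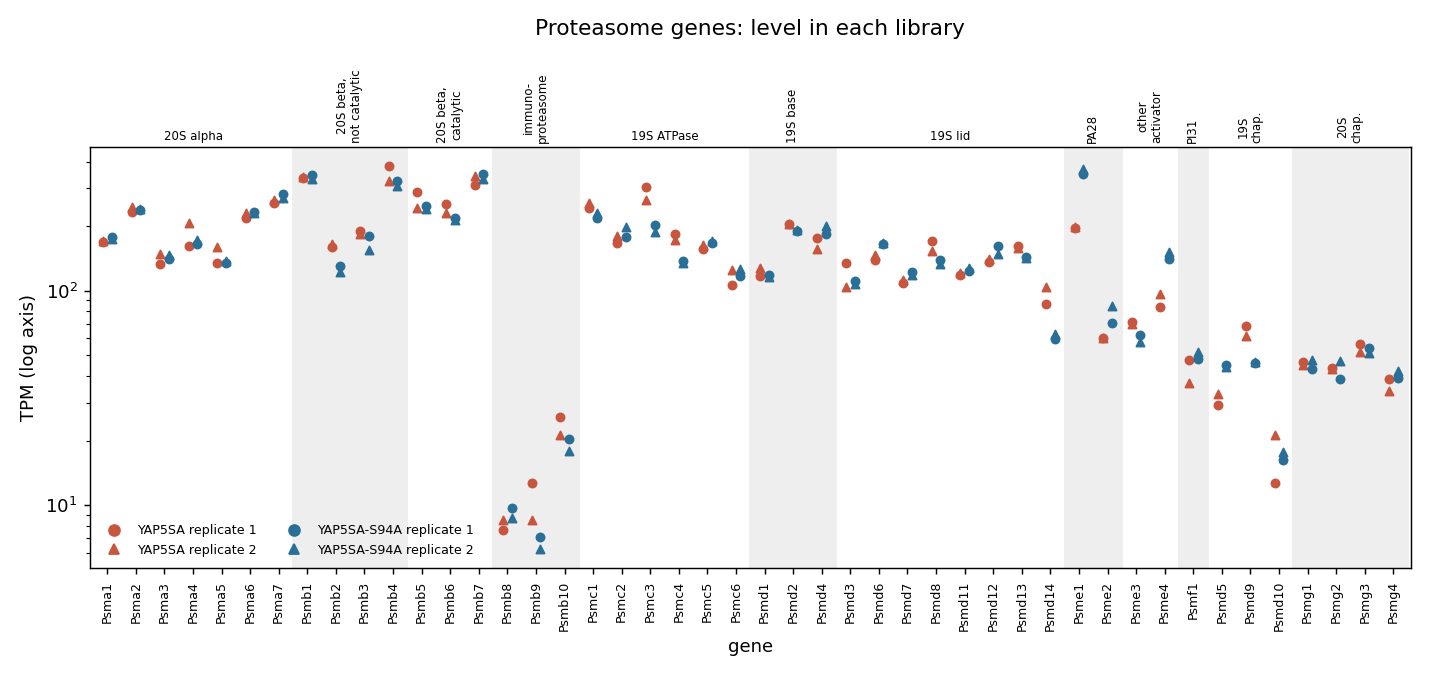
Level in each library (y axis, TPM on a log axis) of the 46 tested proteasome genes (x axis), grouped by subcomplex, with YAP5SA in red, YAP5SA-S94A in blue, circles for replicate 1 and triangles for replicate 2. Core and 19S genes lie between 59.8 and 381 TPM, and the 3 immunoproteasome genes between 6.25 and 25.6 TPM.

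The immunoproteasome subunits Psmb8, Psmb9 and Psmb10, which replace Psmb5, Psmb6 and Psmb7, were far lower than their constitutive partners with both YAP forms. Their summed level was 46.0 and 38.2 TPM in YAP5SA and 37.1 and 32.9 TPM in YAP5SA-S94A. Relative to the summed level of the partners this was 0.0539 and 0.0466 against 0.0455 and 0.0417. The groups did not overlap, but the higher YAP5SA-S94A library lay closer to the lower YAP5SA library than replicates of either group lay to each other. None of the 3 passed in limma, and 1 of 3 had an unadjusted p under 0.05.

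The 3 genes did not move alike. Psmb9 stood at 12.7 and 8.51 TPM in YAP5SA and 7.07 and 6.25 TPM in YAP5SA-S94A, so both YAP5SA libraries were higher and replicate 1 stood apart from replicate 2. Its fold change was 0.58 (SE 0.22, 95% interval 0.07 to 1.08, limma adjusted p = 0.0802), and it passed without YAP5SA replicate 2 (fold change 0.84, adjusted p = 0.0233). Psmb10 stood at 25.6 and 21.1 against 20.4 and 17.9 TPM, also without overlap, with a fold change of 0.27 (SE 0.15, limma adjusted p = 0.208).

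Psmb8 lay the other way, at 7.63 and 8.56 TPM in YAP5SA and 9.71 and 8.69 TPM in YAP5SA-S94A. Its fold change was -0.17 with a 95% interval of -0.56 to 0.23, so changes within that range are compatible with these libraries. Per partner, the ratio Psmb8 to Psmb5 was 0.0263 and 0.0351 in YAP5SA against 0.0393 and 0.0361. Psmb9 to Psmb6 was 0.0501 and 0.0368 against 0.0323 and 0.0292, and Psmb10 to Psmb7 was 0.0829 and 0.0614 against 0.0581 and 0.0539. Each of these ratios was without overlap between the groups, with the first lower and the others higher in YAP5SA. In each, however, the gap between the groups was smaller than the distance between the YAP5SA replicates. Among levels of single genes, 68.2% of all those tested were without overlap. Psmb8 and Psmb9 were also the lowest of the 46 tested genes, both with a mean of 8.6 TPM, and the next gene below them was Psmb11, under the filter at 0.07 TPM.

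The promoter of Psmb10 (chr19:50743293-50743452, minus strand, GRCr8) is shown because it held the most IRF matches among the immunoproteasome genes, which are known for their induction by interferon.
Psmb10: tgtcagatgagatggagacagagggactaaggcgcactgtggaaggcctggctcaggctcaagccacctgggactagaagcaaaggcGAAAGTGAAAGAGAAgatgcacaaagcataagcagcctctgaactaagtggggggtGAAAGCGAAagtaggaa
Its 3 IRF matches lie at bases 73 to 65, 67 to 59 and 17 to 9 before the start, the first and the next sharing 3 bases. In the Psmb8 window an IRF match crossed the start, and the Psmb9 window held none.

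In the 19S regulatory particle 3 of 17 tested subunits rose (17.6%, against 17.4% of all genes) and 0 fell in limma, and 4 higher and 0 lower had an unadjusted p under 0.05. The median fold change was 0.06. The 17 genes summed to 2715 and 2689 TPM in YAP5SA and 2533 and 2562 TPM in YAP5SA-S94A. For 14 of the 17 the interval lay within 1.5-fold, and the exceptions were the 3 that rose. Relative to the median core subunit, the median 19S subunit stood at 0.694 and 0.660 in YAP5SA and 0.634 and 0.638 in YAP5SA-S94A.

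The 6 ATPases form the ring that unfolds substrates and threads them into the core. Of these, 2 rose, against 17.4% of all genes. Psmc3 (chr3:77031825-77037207 in rn7) stood at 304 and 266 TPM in YAP5SA and 203 and 189 TPM in YAP5SA-S94A. Both YAP5SA libraries lay well above both others. Its level was 285 ± 26.9 against 196 ± 10.1 TPM (n = 2 each), a fold change of 0.54 (SE 0.10, limma adjusted p = 0.00748). Without YAP5SA-S94A replicate 2 it no longer passed (fold change 0.48, adjusted p = 0.0592).

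Psmc4 (chr1:83349127-83357497 in rn7) stood at 183 and 172 TPM in YAP5SA and 138 and 134 TPM in YAP5SA-S94A, again without overlap. The fold change of Psmc4 was 0.38 (SE 0.09, limma adjusted p = 0.0186), with an adjusted p of 0.0723 without the intensity trend and of 0.145 and 0.196 without YAP5SA-S94A replicates 1 and 2. Fold changes of the remaining ATPases, Psmc1, Psmc2, Psmc5 and Psmc6, ran from -0.11 to 0.16. The ring holds 1 copy of each ATPase, yet their messages did not stand at 1 level. Psmc3 was the most abundant ATPase in both YAP5SA libraries, and Psmc1, at 217 and 230 TPM, in both YAP5SA-S94A libraries.

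The promoter of Psmc3 (chr3:97487483-97487642, plus strand, GRCr8) is shown as that of the ATPase with the largest difference.
Psmc3: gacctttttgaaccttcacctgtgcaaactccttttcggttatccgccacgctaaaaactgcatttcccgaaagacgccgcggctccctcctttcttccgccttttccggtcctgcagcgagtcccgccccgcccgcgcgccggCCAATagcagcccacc
Its only match in these 160 bases is an NF-Y box at bases 16 to 12 before the start.

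The 3 other tested subunits of the base, the scaffolds Psmd1 and Psmd2 and the ubiquitin receptor Psmd4, gave fold changes of 0.06, 0.11 and -0.20. None passed in limma, and 0 of 3 had an unadjusted p under 0.05. Psmd4 stood at 176 and 156 TPM in YAP5SA and 183 and 199 TPM in YAP5SA-S94A, and a pair of uncharacterised genes on the opposite strand overlaps it at 0.93 and 1.30 TPM on average.

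In the lid, which removes ubiquitin chains, 1 of 8 tested subunits rose, against 17.4% of all genes. This was Psmd14 (chr3:46254338-46347076 in rn7), the deubiquitinase itself, which cuts the chain from the substrate as it enters. It stood at 86.9 and 104 TPM in YAP5SA and 59.8 and 62.8 TPM in YAP5SA-S94A. Both YAP5SA libraries were clearly the higher, and both YAP5SA-S94A libraries lay close together. Its level was 95.4 ± 12.0 against 61.3 ± 2.14 TPM (n = 2 each), a fold change of 0.62 (SE 0.12, limma adjusted p = 0.00720), the largest increase among the 46.

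Psmd14 passed in all 16 alternatives, with fold changes of 0.50 to 0.75. It was also the least abundant lid subunit in every library. Its ratio to the median of the other lid subunits was 0.640 and 0.737 in YAP5SA and 0.430 and 0.472 in YAP5SA-S94A. The 7 others were Psmd3, Psmd6, Psmd7, Psmd8, Psmd11, Psmd12 and Psmd13, structural subunits around the deubiquitinase, with fold changes from -0.21 (Psmd6) to 0.25 (Psmd8). Psmd8 stood at 171 and 152 TPM in YAP5SA and 139 and 133 TPM in YAP5SA-S94A, without overlap and with a limma adjusted p of 0.104. Psmd6 lay the other way, at 140 and 147 against 165 and 167 TPM, with a limma adjusted p of 0.119.

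**Figure D3:**
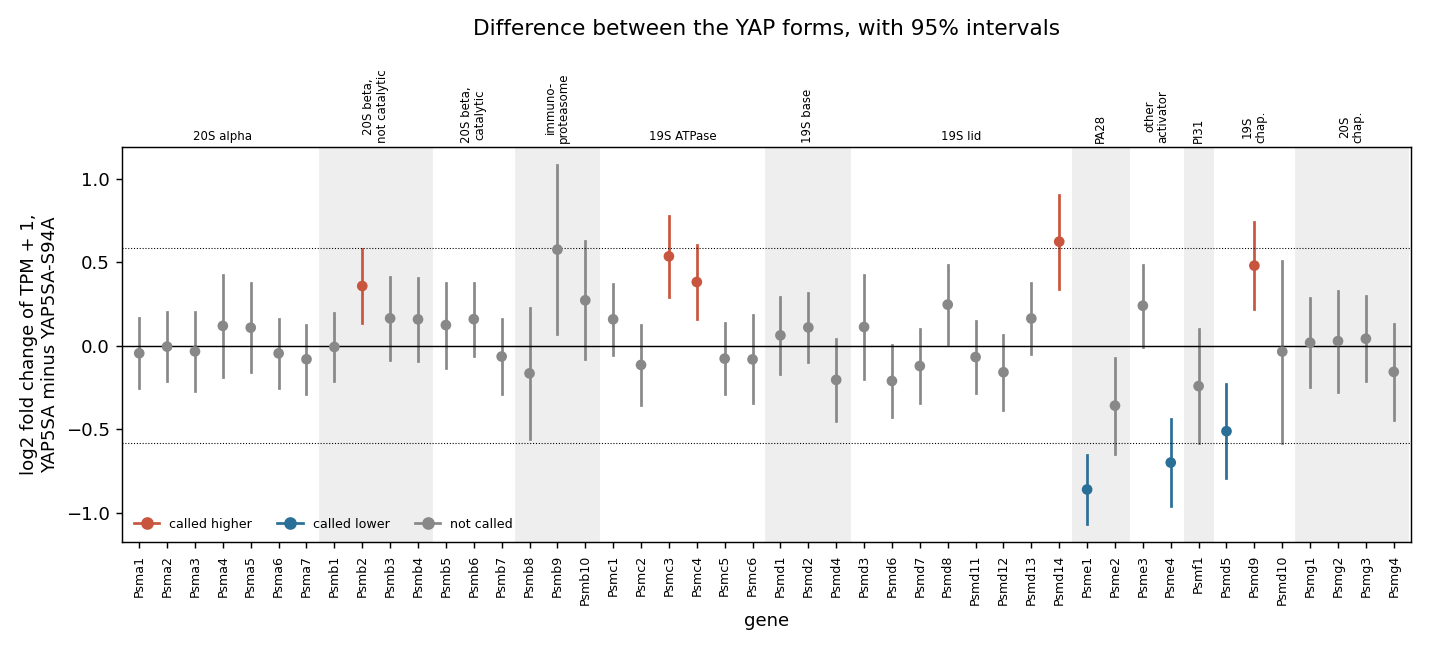
Fold change (y axis, difference of log2(TPM + 1), positive where YAP5SA is higher) with its 95% interval for each of the 46 tested genes (x axis), with called genes in red (higher) or blue (lower) and dotted lines at 1.5-fold. The 14 core genes all stay between the dotted lines, and Psmd14 at 0.62 and Psme1 at -0.86 are the extremes.

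The activators were the group with the largest decreases. Of 4 tested, Psme1 and Psme4 fell, while Psme2 and Psme3 did not pass. Over all genes 15.5% fell, and whether the activators differ from that was not tested. Their sum was 412 and 423 TPM in YAP5SA and 622 and 662 TPM in YAP5SA-S94A.

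Psme1 (chr15:29069012-29071888 in rn7) encodes the alpha subunit of PA28, and its end overlaps by 8 bases with Emc9, a gene on the opposite strand at 4.02 to 13.0 TPM. It stood at 196 and 197 TPM in YAP5SA and 348 and 368 TPM in YAP5SA-S94A. The groups were far apart and the replicates of each close together. Its level was 197 ± 0.788 against 358 ± 13.6 TPM (n = 2 each), a fold change of -0.86 (SE 0.09, limma adjusted p = 4.75e-04), the largest difference of the 46. It passed in all 16 alternatives, with fold changes of -0.93 to -0.82. With YAP5SA-S94A its message stood above that of the median core subunit, at a ratio of 1.54 and 1.65, and with YAP5SA below it, at 0.870 and 0.853.

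Psme2 encodes the beta subunit of PA28, which joins the alpha subunit in 1 ring, and lies near Psme1 on the opposite strand (chr15:29078495-29082794 in rn7). It stood at 60.4 and 59.8 TPM in YAP5SA and 70.4 and 85.1 TPM in YAP5SA-S94A. Both YAP5SA libraries were the lower, and the YAP5SA-S94A libraries differed more between themselves than the YAP5SA libraries did. Its fold change was -0.36 (SE 0.12, 95% interval -0.65 to -0.07, limma adjusted p = 0.0604), and it passed with mitochondrial transcripts left out (adjusted p = 0.0309). Without YAP5SA-S94A replicate 2 the fold change of Psme2 was -0.22 (limma adjusted p = 0.527). The ratio of Psme1 to Psme2 was 3.24 and 3.29 in YAP5SA against 4.95 and 4.32 in YAP5SA-S94A, so the alpha message exceeded the beta message in every library and by less in YAP5SA.

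Psme4 (chr14:104505716-104609410 in rn7) encodes PA200, a single-chain nuclear activator known for the breakdown of acetylated histones. It stood at 83.6 and 96.1 TPM in YAP5SA and 141 and 152 TPM in YAP5SA-S94A. The groups did not overlap, and the gap between them was larger than either spread. Its level was 89.8 ± 8.83 against 146 ± 7.81 TPM (n = 2 each), a fold change of -0.70 (SE 0.11, limma adjusted p = 0.00304). It passed in all 16 alternatives, with fold changes of -0.80 to -0.60. Its ratio to the median core subunit was 0.371 and 0.416 in YAP5SA against 0.622 and 0.683.

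Psme3, the nuclear PA28 gamma, lay the other way. It stood at 71.8 and 70.2 TPM in YAP5SA and 62.4 and 57.6 TPM in YAP5SA-S94A, without overlap. For Psme3 the fold change was 0.24 (SE 0.10, limma adjusted p = 0.120). Psmf1, which encodes the inhibitor PI31, stood at 47.5 and 36.9 against 47.8 and 51.7 TPM, with a fold change of -0.24 (SE 0.14, limma adjusted p = 0.241).

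The promoters of Psme1, Psme2 and Psme4 are shown because 2 of these genes had the largest decreases and because both PA28 genes are known interferon targets. The windows are chr15:33038811-33038970, plus strand, for Psme1, chr15:33052752-33052911, minus strand, for Psme2, and chr14:108706483-108706642, plus strand, for Psme4 (all GRCr8).
Psme1: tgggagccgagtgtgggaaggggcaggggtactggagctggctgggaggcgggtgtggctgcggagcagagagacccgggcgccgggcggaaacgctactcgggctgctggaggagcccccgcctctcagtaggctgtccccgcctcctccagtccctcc
Psme2: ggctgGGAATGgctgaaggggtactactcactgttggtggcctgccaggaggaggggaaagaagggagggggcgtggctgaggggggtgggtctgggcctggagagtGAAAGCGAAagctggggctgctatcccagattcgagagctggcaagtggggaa
Psme4: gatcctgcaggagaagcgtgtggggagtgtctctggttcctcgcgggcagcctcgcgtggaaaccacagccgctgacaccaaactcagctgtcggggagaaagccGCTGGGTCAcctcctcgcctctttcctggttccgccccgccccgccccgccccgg
The Psme1 window holds none of the 6 motifs. In Psme2 the first capitals are a TEAD match at bases 155 to 150 before the start and the others an IRF match at bases 53 to 45. In Psme4 the capitals are an antioxidant element match at bases 55 to 47, and an ETS match crosses the start.

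Leukocytes are known for high PA28 and immunoproteasome levels, and the summed level of leukocyte markers, most of it Lyz2, was lower in YAP5SA like Psme1, while the summed immunoproteasome level was higher, at 46.0 and 38.2 against 37.1 and 32.9 TPM. The 9 markers summed to 551 and 530 TPM in YAP5SA against 836 and 831 TPM in YAP5SA-S94A. Of the 6 tested, 1 rose (Csf1r) and 3 fell, against 17.4% and 15.5% of all genes. Among those that fell were Lyz2, at 438 and 428 against 714 and 710 TPM, and Cd68. The T cell gene Cd3e was at 0 in every library. Their part in the lower Psme1 was not tested.

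**Figure D4:**
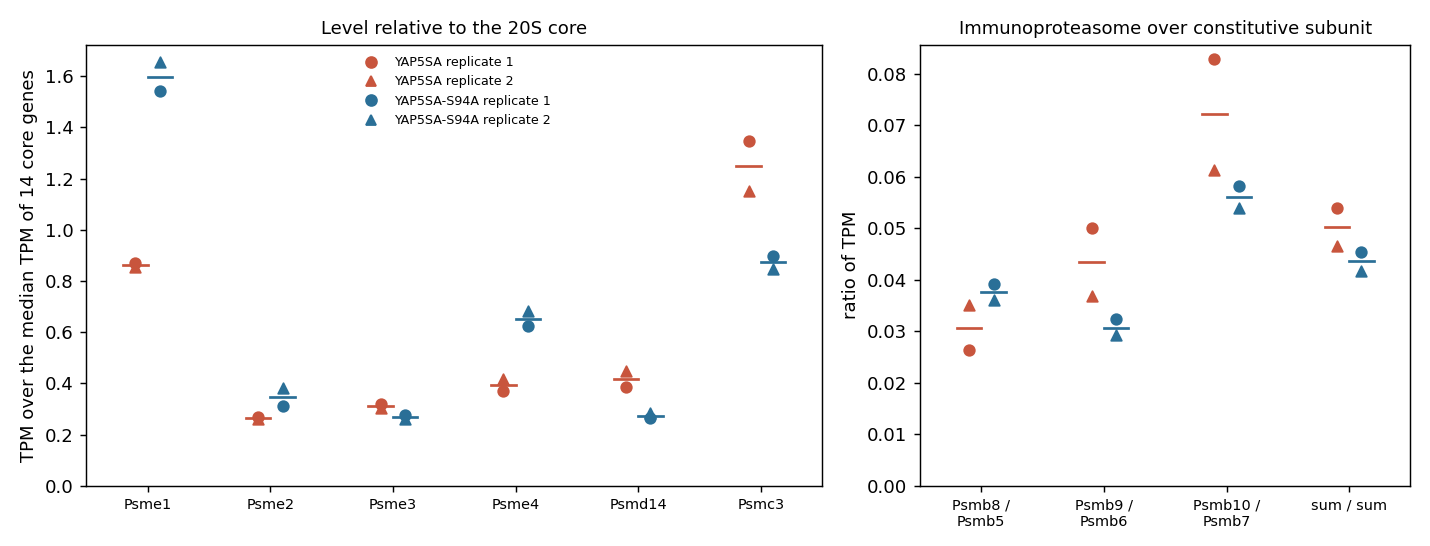
Left, TPM of 6 genes divided by the median TPM of the 14 core genes in the same library (y axis); right, TPM of each immunoproteasome subunit divided by that of its constitutive partner, and of the 3 summed. Points are libraries and bars group means (n = 2); Psme1 is at 0.853 to 0.870 in YAP5SA and 1.54 to 1.65 in YAP5SA-S94A, and the summed immunoproteasome ratio at 0.0466 to 0.0539 and 0.0417 to 0.0455.

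Of the 3 tested chaperones that assemble the ATPase ring, 1 rose and 1 fell, against 17.4% and 15.5% of all genes. Psmd9 (chr12:33337182-33357468 in rn7) stood at 68.7 and 61.2 TPM in YAP5SA and 45.8 and 46.7 TPM in YAP5SA-S94A, with both YAP5SA libraries the higher. The fold change of Psmd9 was 0.48 (SE 0.11, limma adjusted p = 0.0154), and the adjusted p was 0.118 and 0.0934 without YAP5SA-S94A replicates 1 and 2. Psmd5 (chr3:18133715-18151000 in rn7) lay the other way, at 29.1 and 33.0 against 45.1 and 44.1 TPM, and every YAP5SA value was below every YAP5SA-S94A value.

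For Psmd5 the fold change was -0.51 (SE 0.12, limma adjusted p = 0.0157), with an adjusted p of 0.125 and 0.0961 without YAP5SA-S94A replicates 1 and 2. Psmd10, also known as gankyrin, stood at 12.7 and 21.3 against 16.1 and 17.7 TPM, so that the YAP5SA libraries lay on either side of the others. Without YAP5SA-S94A replicates 1 and 2 the fold changes stayed close to these, at -0.50 and -0.53 for Psmd5 and 0.47 and 0.49 for Psmd9. The sum of the 3 chaperones, at 111 and 115 TPM in YAP5SA and 107 and 108 TPM in YAP5SA-S94A, does not show their opposite directions.

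The promoter of Psmd9 (chr12:39018265-39018424, minus strand, GRCr8) is shown because it held 2 antioxidant element matches, at bases 124 to 116 and 77 to 69 before the start, with an NF-Y match at bases 42 to 38.
Psmd9: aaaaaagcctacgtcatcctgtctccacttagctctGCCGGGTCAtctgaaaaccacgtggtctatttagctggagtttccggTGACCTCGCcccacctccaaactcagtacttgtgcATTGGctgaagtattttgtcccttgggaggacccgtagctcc

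The chaperones of the 20S core, Psmg1 to Psmg4, work as pairs in building the alpha ring of the core. None of the 4 passed in limma, and 0 of 4 had an unadjusted p under 0.05. Their fold changes ran from -0.16 (Psmg4) to 0.04 (Psmg3), and all 4 intervals lay within 1.5-fold. They summed to 185 and 174 TPM in YAP5SA and 175 and 188 TPM in YAP5SA-S94A, which overlapped. The chaperones with Psm names were all low beside the parts they assemble, with means of 16.9 to 55.6 TPM. Pomp, the maturation factor of the core described below, was not, with a mean of 415 TPM.

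Among proteasome parts and partners outside the Psm names, 12 tested, 0 rose and 2 fell in limma, and 2 higher and 3 lower had an unadjusted p under 0.05. The share called was 16.7%, against 32.9% of all genes. With no filter on TPM 0 fell, where 15.3% of all genes were called, and without the intensity trend 1 fell. The median fold change was -0.15. Ecpas, a scaffold that binds and inspects the assembled proteasome, stood at 35.7 and 42.2 TPM in YAP5SA against 58.0 and 54.5 TPM, a fold change of -0.52 (limma adjusted p = 0.0171, and 0.123 and 0.0573 without YAP5SA-S94A replicates 1 and 2). Zfand5, which binds the 19S particle and stimulates degradation, had a fold change of -0.57 (limma adjusted p = 0.0325, 0.0867 without YAP5SA replicate 1 and 0.146 without YAP5SA-S94A replicate 2). Pomp, the maturation factor of the core, was the most abundant of the list at 424 and 497 against 393 and 345 TPM, with a fold change of 0.32 that did not pass (adjusted p = 0.0718).

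Of 4 genes that supply or activate ubiquitin, 1 rose and 0 fell in limma, and 3 higher and 1 lower had an unadjusted p under 0.05. Here 25.0% were called, against 32.9% of all genes. With no filter on TPM, and also with mitochondrial transcripts left out, 0 rose. Uba6, an E1 enzyme, had a fold change of 0.53 (limma adjusted p = 0.0354) but did not pass with any 1 library left out, at adjusted p of 0.0535 and 0.0862 without YAP5SA replicates 1 and 2 and of 0.321 and 0.0751 without YAP5SA-S94A replicates 1 and 2. The polyubiquitin gene Ubb, the most abundant of the 4, stood at 1303 and 1183 against 1429 and 1493 TPM, with a fold change of -0.23 that did not pass (limma adjusted p = 0.0941). It passed without YAP5SA replicate 1, at -0.30 (0.0264), with quantile normalization (0.0242) and with mitochondrial transcripts left out (0.0237).

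Of 13 shuttle factors and p97 partners, which carry or extract ubiquitinated proteins on the way to the proteasome, 1 rose and 3 fell. This made 30.8% called, against 32.9% of all genes. Sqstm1, the p62 receptor that brings ubiquitinated cargo to autophagy, stood at 367 and 323 TPM in YAP5SA and 918 and 909 TPM in YAP5SA-S94A. The gap between the groups was far larger than either SD, and the fold change was -1.40 (SE 0.10, limma adjusted p = 8.10e-05). Rad23b, a shuttle that binds ubiquitin and the 19S particle, rose from 155 and 154 to 222 and 222 TPM, a fold change of 0.52 (limma adjusted p = 0.00403). The p97 partners Faf1 and Ubxn1 had fold changes of -0.50 and -0.36. Faf1 had an adjusted p of 0.00946, and of 0.0635 and 0.120 without YAP5SA-S94A replicates 1 and 2. Ubxn1 had 0.0189, and 0.247 and 0.147 without them. Vcp, which encodes p97 itself, did not pass, at a fold change of -0.05.

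Of 18 genes for the control of proteasome gene transcription, 4 rose and 7 fell. That was 61.1%, against 32.9% of all genes. Without the intensity trend 4 rose and 3 fell, where 28.1% of all genes were called. The small Maf genes Mafk and Maff, which encode partners of Nrf factors on the antioxidant element, rose with fold changes of 1.49 and 1.17 (limma adjusted p = 8.81e-04 and 0.00163). The third small Maf gene, Mafg, named after its values were seen, fell, at 25.5 and 22.7 against 46.1 and 41.0 TPM (fold change -0.83, limma adjusted p = 0.00287). Fbxw7, the substrate receptor of a ubiquitin ligase that targets Nrf1 among others, rose with 1.11, and the forkhead factor gene Foxo4 fell with -0.89. Besides the Nrf genes below, the other genes of the list that fell were Bach1, Keap1 and Sel1l, also named after their values were seen. Their fold changes were -0.87, -0.61 and -0.42 (limma adjusted p = 0.00186, 0.0260 and 0.0178). The 3 Nrf genes of the list, picked after their values were seen, did not move alike. Nfe2l1, which encodes Nrf1, the main inducer of proteasome genes when the proteasome is inhibited, stood at 179 and 174 TPM in YAP5SA and 220.3 and 224 TPM in YAP5SA-S94A (fold change -0.33, limma adjusted p = 0.0264). Nfe2l2 stood at 138 and 150.2 against 190 and 202 TPM (fold change -0.44, adjusted p = 0.0126). Nfe2l3, near the lower limit of the test at 1.35 and 1.93 against 0.44 and 0.38 TPM, rose (fold change 0.90, adjusted p = 0.0434). Without YAP5SA-S94A replicates 1 and 2, the limma adjusted p was 0.226 and 0.274 for Nfe2l1, 0.0629 and 0.156 for Nfe2l2, and 0.114 and 0.140 for Nfe2l3, which also did not pass without YAP5SA replicate 2 (0.0866).

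Of 20 tested genes of antigen processing and the interferon response, 1 rose and 1 fell, 10.0% in all against 32.9% of all genes. Tap1, which moves peptides made by the proteasome into the endoplasmic reticulum and shares an intergenic region with Psmb9, stood at 27.4 and 23.2 TPM in YAP5SA and 15.7 and 15.0 TPM in YAP5SA-S94A. This gave Tap1 a fold change of 0.68 (SE 0.14, limma adjusted p = 0.00989, and 0.0538 without YAP5SA-S94A replicate 2). The interferon-induced Usp18 stood at 2.51 and 2.43 TPM in YAP5SA and 5.75 and 11.9 TPM in YAP5SA-S94A, a fold change of -1.43 (limma adjusted p = 0.0120, and 0.0579 and 0.0655 without YAP5SA replicates 1 and 2). YAP5SA-S94A replicate 2 also stood above the other libraries for 3 uncalled interferon-induced genes, named after their values were seen. Isg15 stood at 17.6 TPM there against 4.59 to 10.8 TPM, Mx1 at 3.14 against 0.69 to 1.06 TPM and Mx2 at 13.8 against 0.91 to 3.09 TPM. The list did not follow as a whole. Stat2 and Gbp2 were also highest in that library, while Ifit2, Irf1 and Irf9 were not. Ifit2 stood at 11.6 TPM there and 12.0 TPM in YAP5SA replicate 2, and Irf9 at 24.1 TPM there and 25.7 and 25.8 TPM in YAP5SA. B2m, the light chain of class I molecules, was the most abundant of the list and did not pass, at 242 and 265 against 261 and 281 TPM.

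**Figure D5:**
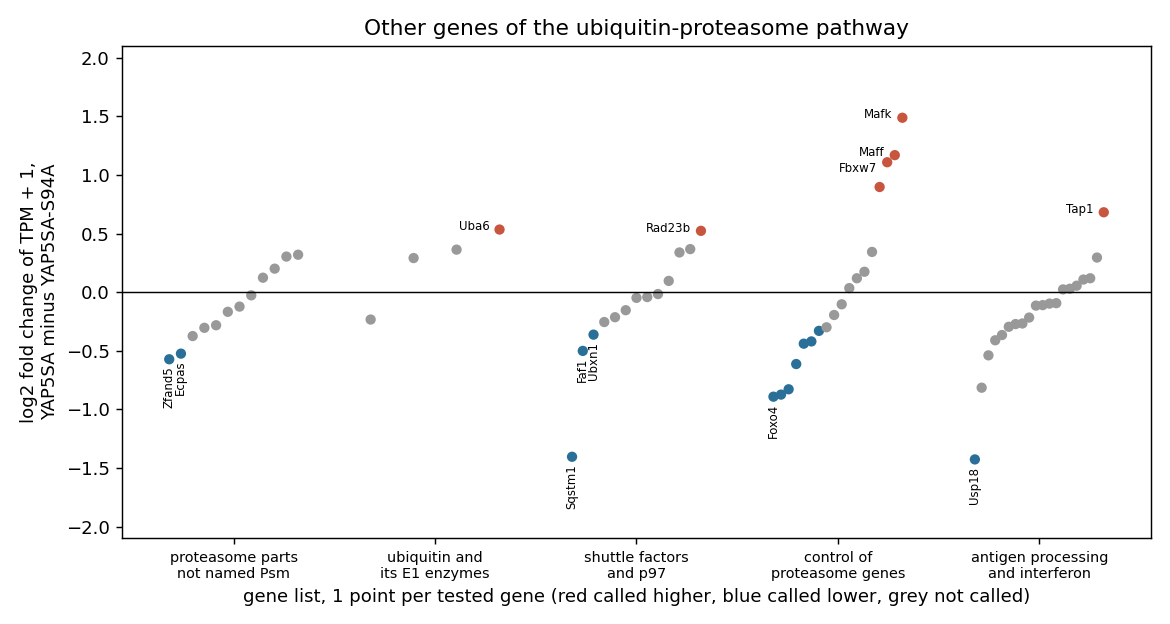
Fold change (y axis, difference of log2(TPM + 1), positive where YAP5SA is higher) of each tested gene in 5 lists of the ubiquitin-proteasome pathway (x axis), with called genes in red (higher) or blue (lower), the rest in grey, and names for called genes described in the text. Sqstm1 at -1.40 and Mafk at 1.49 lie farther from 0 than any of the proteasome genes.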

How the data were processed

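The authors' deposited tables gave TPM, FPKM and mean coverage (signal, reads per base) for each gene of the 4 RNA-seq libraries. The submitters' processing notes list StringTie 2.2.1, HISAT2 2.2.1, fastp, R 4.3.1 and the rn7 build among others. Their settings are not given in the sources used here. Libraries were directional per the labels' protocols, but whether counting used the strand is not given. Of the 48 proteasome genes, 10 are overlapped by a gene on the opposite strand, and the highest such gene reached 2.94% of its proteasome gene's TPM. Of 45 pseudogene names of the family, 1 reached a mean TPM of 1.

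TPM of entries sharing a name were summed. The test was limma 3.58.1 (R 4.3.3) on log2(TPM + 1) of all names at or above a mean TPM of 1, with moderated statistics and an intensity trend. The prior carried 5.09 degrees of freedom beside 2 residual ones, and the method was tested on simulated data. FPKM served as an alternative, and coverage gave the read depth. The largest ratio of coverage to FPKM in a library gave the estimate of its aligned sequence. Other alternatives were the pseudocount, the filter, the scaling, the variance model, a replicate block and each library left out. Sequences are RefSeq promoter windows (GRCr8), and gene coordinates are those of the deposited tables (rn7). All tested proteasome genes could be named. From each pathway list up to 4 called genes with the smallest p and up to 2 uncalled genes with the highest TPM could be named, and from marker lists up to 3 genes and those at 0. Some genes of the pathway lists are not reported here and were left out of the counts of their lists. Members and lists were chosen with earlier results of these data known. Protein identity was planned and not run. CUT&RUN samples (6) were not used. Software was Python 3.11.15 with pandas 2.3.3, matplotlib 3.10.9 and numpy 2.4.6.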

Additional observations from a re-analysis of the deposited data

How the results depend on the processing

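With 2 libraries a group, the calls rest on few values, and low genes such as Psmb8 and Psmb9 have wide intervals. Psme1, Psme4 and Psmd14 passed under all 16 alternatives. The number of members called higher in YAP5SA was 3 with no intensity trend, and 1 to 10 with a library left out. The number of members called lower in YAP5SA was 2 to 5 with a library left out. The median log2 fold change of the tested members was -0.0643 with mitochondrial transcripts left out. The median log2 fold change of the constitutive 20S core members was 0.0222 in FPKM, 0.014 with quantile normalization and -0.0197 with mitochondrial transcripts left out, and -0.0316 to 0.0535 with a library left out. The median log2 fold change of the 19S regulatory particle members was 0.0328 in FPKM, -0.0089 with mitochondrial transcripts left out, and -0.003 to 0.0792 with a library left out. Leaving out mitochondrial transcripts moved the median of all genes to -0.0662. The cause of these moves was not tested.

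With a replicate block 6 proteasome genes were called higher and 4 lower, Psmb9 (adjusted p = 0.0268, limma) and Psme2 (0.0273) being added. Over all genes the block raised the share called from 32.9% to 39.6%, and without YAP5SA-S94A replicates 1 and 2 it was 22.5%. Libraries with the same number had deviations correlated at 0.1011 over 13420 genes, and the labels do not say that a number marks a shared culture. Among list counts, the block gave 2 higher genes of the proteasome parts outside the Psm names, 3 of the ubiquitin genes and 2 of the shuttle factors, and 2 lower genes of antigen processing and the interferon response.

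No called gene changed sign. Uncalled genes near 0 did so, with these fold changes. Without mitochondrial transcripts Psmd1 was at -0.0089, Psmg1 at -0.0519, Psmg2 at -0.0425, Psmg3 at -0.0283 and Ifngr1 at -0.0159. In FPKM Psmg1 was at -0.0099 and Psmg2 at -0.0011. With a library left out, the ranges were -0.1909 to 0.0275 for Psmc6, -0.003 to 0.1275 for Psmd1, -0.3876 to 0.3176 for Psmd10, -0.066 to 0.2908 for Psmd3, -0.0447 to 0.0345 for Psma2, -0.1119 to 0.0441 for Psma3, -0.0563 to 0.2946 for Psma4, -0.0185 to 0.2354 for Psma5, -0.1415 to 0.0123 for Psmb7, -0.0348 to 0.0204 for Psmb1, -0.0501 to 0.0869 for Psmg1, -0.1062 to 0.1616 for Psmg2, -0.0167 to 0.101 for Psmg3 and -0.0077 to 0.1998 for Nsfl1c.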

Other observations

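Some genes within 50000 bases of Psme1 on chromosome 15 also differed between the YAP forms, and are given here as values, picked after they were seen. Of 9 other tested genes there, 1 rose, 4 fell and 4 did not pass. Over all genes the test called 17.4% higher and 15.5% lower, and whether neighbours differ from that was not tested. On the same strand, Dcaf11 and Fitm1, a gene of lipid droplet formation in muscle, fell with log2 fold changes of -0.51 and -1.44 (limma adjusted p = 0.00904 and 2.43e-04), Dcaf11 not passing without YAP5SA-S94A replicate 2 (0.120). Emc9, which overlaps the end of Psme1 by 8 bases on the opposite strand, fell with -1.15 (adjusted p = 0.00549), at 5.15 and 4.02 TPM in YAP5SA against 9.87 and 13.0 TPM in YAP5SA-S94A. The uncharacterised LOC102552219 fell, at 0.71 and 0 against 6.68 and 4.96 TPM (limma adjusted p = 0.00160). Rnf31 and Irf9, which lie beyond Psme2, did not pass, at -0.32 and 0.30, and Ipo4 rose with 0.38 (limma adjusted p = 0.0496). Ipo4 did not pass when YAP5SA replicate 1 was left out (0.0821), nor without YAP5SA-S94A replicates 1 and 2 (limma adjusted p = 0.158 and 0.334). Pck2 did not pass, at 0.08. Of 5 tested genes near Psmc3, Slc39a13 rose with 1.03 (adjusted p = 0.00462) and Spi1, a leukocyte transcription factor gene, fell with -0.85 (limma adjusted p = 0.0343), which did not pass without YAP5SA replicate 2 (0.0645) or YAP5SA-S94A replicate 2 (0.0594). The others, Celf1, Rapsn and LOC120101909, did not pass, at -0.17, -0.42 and 0.17. Near Psme4, both tested genes, Erlec1 and Asb3, did not pass, at -0.19 and -0.26.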
